A study of Mus musculus with 12 samples.

Results

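Apolipoprotein E and 9 other genes of macrophage lipid handling were followed in whole mouse pancreatic tumours: Apoe, Lpl, Abca1, Abcg1, Cd36, Gpnmb, Lgals3, Fabp4, Fabp5 and Plin2. Every probe whose platform symbol is 1 of these 10 genes was taken, which gave 15 of the 45281 probes on the array and 10 of the 19057 genes it names. The tumours grew in adult female C57BL/6J mice after syngeneic pancreatic tumour cells in matrigel had been implanted surgically into the pancreas. Once tumours had reached about 1 cm, chow carried vehicle (Vehicle, 4 tumours) or a CSF1R inhibitor (CSF1Ri, 5 tumours) for 8 days. All mice were perfused with heparinised saline and all tumours were digested with collagenase, so every group shares these steps. The labels name neither the inhibitor, its dose nor the tumour line. Total RNA of the tissue was measured on Illumina BeadArrays, which report the brightness of a probe and not the expression of any single cell type.

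ApoE is a secreted lipoprotein component that macrophages make in quantity and that carries cholesterol and phospholipid out of cells. ABCA1 and ABCG1 are the membrane transporters that load lipid onto such particles, and their genes are classic targets of the liver X receptors. Lipoprotein lipase and CD36 bring fatty acids in, FABP4 and FABP5 carry them inside the cell, and perilipin 2 coats the droplets in which they are stored. GPNMB, a transmembrane glycoprotein, and galectin-3, a sugar-binding lectin, mark macrophages that have taken up much lipid or debris. Several of these genes are also used outside macrophages, FABP4, CD36 and LPL in fat and vessels and galectin-3 in epithelial tumour cells.

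The 12 arrays came from 9 tumours, because Vehicle 1, Vehicle 3 and CSF1Ri 1 were hybridised again, and such repeats were averaged into 1 value. Between 16219 and 17847 probes were detected per array (detection p-value under 0.05). The arrays fell into 6 dimmer ones (median deposited intensity 2.70 to 3.77) and 6 brighter ones (4.51 to 5.48), each with 3 Vehicle and 3 CSF1Ri arrays, and the labels do not say what separates them. A level below is a normalised log2 intensity, and a difference is CSF1Ri minus Vehicle. Csf1r, which encodes the receptor that the drug blocks, was at 7.13, 7.42, 7.44 and 7.84 in Vehicle tumours 1 to 4 and at 6.36, 6.02, 6.76, 6.01 and 6.06 in CSF1Ri tumours 1 to 5 (difference -1.22, SE 0.19, limma adjusted p = 0.0498). A dimmer Csf1r probe had a difference of -1.16 (adjusted p = 0.201). The call of the brighter probe was narrow, since it was kept without Vehicle 1 or CSF1Ri 3 and lost without any other single tumour (adjusted p from 0.108 to 0.206). The labels number the samples as repeats and do not state 1 mouse for each, so the p-values measure the spread between these samples.

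Of the 15 probes, 5 were detected on all 12 arrays, 2 on some and 8 on none. One probe each of Apoe, Lpl, Gpnmb, Lgals3 and Plin2 was detected throughout. A probe entered the test if 4 or more tumours had it detected on all of their arrays, and 6 of the 15 passed, those 5 and 1 probe of Fabp5. Over all 16606 probes tested, 0.145% had a lower and 0% a higher level in the CSF1Ri group at a limma adjusted p under 0.05. Among the 6 tested probes, 0 were lower and 0 were higher at that threshold. At an unadjusted p under 0.05, 1 of the 6 was lower (Apoe) and 1 was higher (Plin2), beside 3.4% and 4.18% of all probes (7.58% in either direction). With repeat arrays averaged, Vehicle and CSF1Ri values were fully separate for the same 2 genes. The share over all probes was 1.32% on the lower and 1.5% on the higher side (2.82% together). The plot of all probes shows the 15 probes by tumour.

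**Figure D1:**
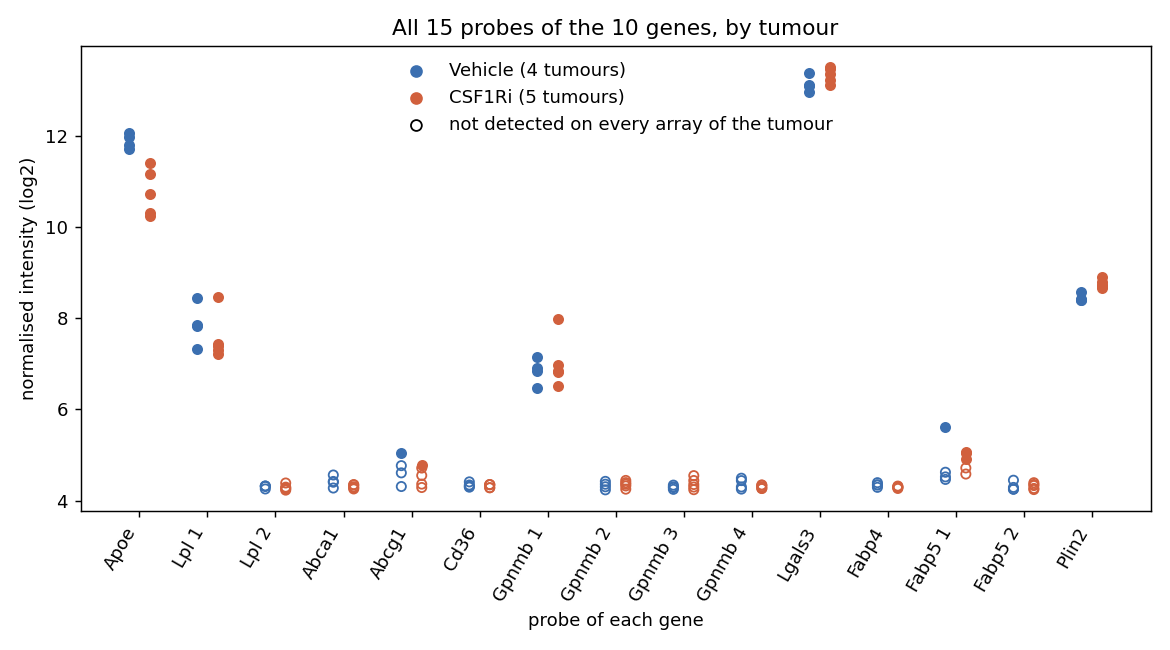
Normalised log2 intensity (vertical axis) of the 15 probes of the 10 genes (horizontal axis; probes of 1 gene are numbered by falling mean), 1 point per tumour, blue for Vehicle and orange for CSF1Ri. Filled points were detected on every array of the tumour. The 8 probes detected on no array lie at the bottom in both groups, and among the 6 tested probes Apoe and Plin2 have separate groups.

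For these 2 genes the start of the gene is shown, because their groups were the ones that separated, and in opposite directions. Each line gives the 250 bases before the start that RefSeq places on GRCm38.p6, on the gene's strand, from 5′ to 3′. Both genes lie on the minus strand, Apoe at chr7:19699189-19699438 (the outermost of 3 starts) and Plin2 at chr4:86670060-86670309. Capitals mark letters that were searched for on both strands: GAGGAA, the core bound by Ets factors such as PU.1, AGGTCA, the hexamer read by nuclear receptors, and CACGTG, the E-box.
Apoe: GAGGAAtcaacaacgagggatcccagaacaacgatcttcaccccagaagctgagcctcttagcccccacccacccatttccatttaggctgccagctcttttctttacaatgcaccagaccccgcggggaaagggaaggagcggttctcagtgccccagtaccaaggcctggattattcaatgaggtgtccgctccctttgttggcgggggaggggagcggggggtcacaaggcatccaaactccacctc
Plin2: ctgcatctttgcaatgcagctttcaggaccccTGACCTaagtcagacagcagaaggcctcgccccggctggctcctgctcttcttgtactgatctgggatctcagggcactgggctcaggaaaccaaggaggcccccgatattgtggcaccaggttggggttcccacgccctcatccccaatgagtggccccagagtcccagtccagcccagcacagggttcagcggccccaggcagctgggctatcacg
The Apoe window holds GAGGAA at position -250 from the start, and the Plin2 window holds AGGTCA, read on the other strand, at position -218. Of 32851 such windows, 23.3% hold GAGGAA, 14% hold AGGTCA and 6.02% hold CACGTG. RefSeq windows were at hand for 6 of the 10 genes, and outside the 2 shown AGGTCA lay in that of Cd36 and CACGTG in that of Abca1. A further GAGGAA lay in 1 of the other 2 Apoe windows. A match of letters is a description of the window and not a site.

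Apoe (Entrez Gene 11816, probe ILMN_1216042) was lower in CSF1Ri tumours, with a difference that did not pass the test over all probes. Its level was 11.71, 12.05, 11.80 and 11.96 in Vehicle tumours 1 to 4 and 11.15, 10.73, 11.40, 10.25 and 10.31 in CSF1Ri tumours 1 to 5. The highest CSF1Ri value was under the lowest Vehicle value, and the Vehicle tumours lay close together while the CSF1Ri tumours were spread out. The group levels were 11.88 ± 0.15 (SD, n = 4) and 10.77 ± 0.51 (SD, n = 5), a 2.17-fold lower level. The difference was -1.12 (SE 0.23, 95% interval -1.63 to -0.60, limma adjusted p = 0.185). By p it stood at place 58 of the 16606 probes.

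The order of the CSF1Ri tumours was CSF1Ri 3, 1, 2, 5 and 4, and CSF1Ri 5 and 4 differed by less than the 2 hybridisations of CSF1Ri 1 did (0.15) or those of Vehicle 1 (0.24). The 2 arrays of Vehicle 3 differed by 0.00. Before any scaling, the deposited intensities of the dimmer arrays were 2456 to 3120 for Vehicle and 1454 to 2162 for CSF1Ri, and those of the brighter arrays were 3875 to 4878 and 1441 to 2576. The groups therefore did not overlap within either set. The difference was -0.78 within the dimmer arrays (adjusted p = 0.547) and -1.24 within the brighter arrays (adjusted p = 0.195).

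The adjusted p of Apoe came under 0.05 in 3 of 22 other settings. Without CSF1Ri 3, the highest tumour of its group, the difference was -1.27 (limma adjusted p = 0.0485). With the 12 arrays fitted separately and the tumour as a random block it was -1.07 (adjusted p = 0.0484), and with the brightness set added as a term it was -1.09 (adjusted p = 0.0296). The difference was negative in all 22, from -1.27 to -0.78. In whole tumours, fewer cells that make Apoe and less Apoe RNA per cell cannot be told apart.

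Most macrophage markers were lower along with Apoe. Of 21 tested genes of the macrophage list, 19 had a negative difference, and Cd14 (0.23) and Marco (0.03) a positive one. At a limma adjusted p under 0.05, 7 of these 21 fell and 0 rose, beside 19 lower and 0 higher of 9788 genes. The 7 were Cx3cr1, Mrc1, Fcrls, Ms4a6d, Ms4a7, Csf1r and Spi1. The median difference of the list was -1.22, beside 0.01 over all genes. Fcrls was detected on 6 Vehicle and 0 CSF1Ri arrays, Cx3cr1 on 6 and 1 and Spi1 on 6 and 3. Fcrls, Cx3cr1 and Spi1 therefore entered the test mainly through the Vehicle group, where they were high. The count of 7 depended on single tumours: it was 4 without CSF1Ri 1, 2 or 5 or Vehicle 4, and 3 without CSF1Ri 4 or Vehicle 2 or 3. It rose to 9 without Vehicle 1 and to 8 without CSF1Ri 3. The processing moved it too, to 2 without the filter and to 1 with the replicate number as a block. With probes detected on all 12 arrays it was 3 of 14 genes. It was 1 in the dimmer and 2 in the brighter arrays, and 11 with array quality weights or the tumour as a random block. The mean level of the list was 7.83, 8.52, 8.41 and 8.23 in Vehicle tumours 1 to 4 and 7.34, 6.94, 7.52, 6.73 and 6.86 in CSF1Ri tumours 1 to 5. The CSF1Ri tumours stood in the same order for this list as for Apoe. Its summed linear level ran from 11475 to 21724 in Vehicle and from 6063 to 14773 in CSF1Ri tumours. The neutrophil list summed to 4343 to 18719 in Vehicle and 2491 to 8542 in CSF1Ri tumours (median difference -1.35), and its groups overlapped. In it 1 of 12 genes was called lower, Trem1, at a limma adjusted p of 0.0123, and that count was 0 without Vehicle 2 or without CSF1Ri 4. It was also 0 with the replicate number as a block, in the dimmer arrays and in the brighter arrays. With probes detected on all 12 arrays it was 0 of 5 genes. Trem1 was detected on 6 Vehicle and 4 CSF1Ri arrays. The acinar list summed to 42763 to 120486 and 1027 to 136764 (median difference -2.36, 0 of 15 called), and CSF1Ri 5 held its highest and CSF1Ri 1 its lowest value. The part of these cells in the Apoe difference was not tested.

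**Figure D2:**
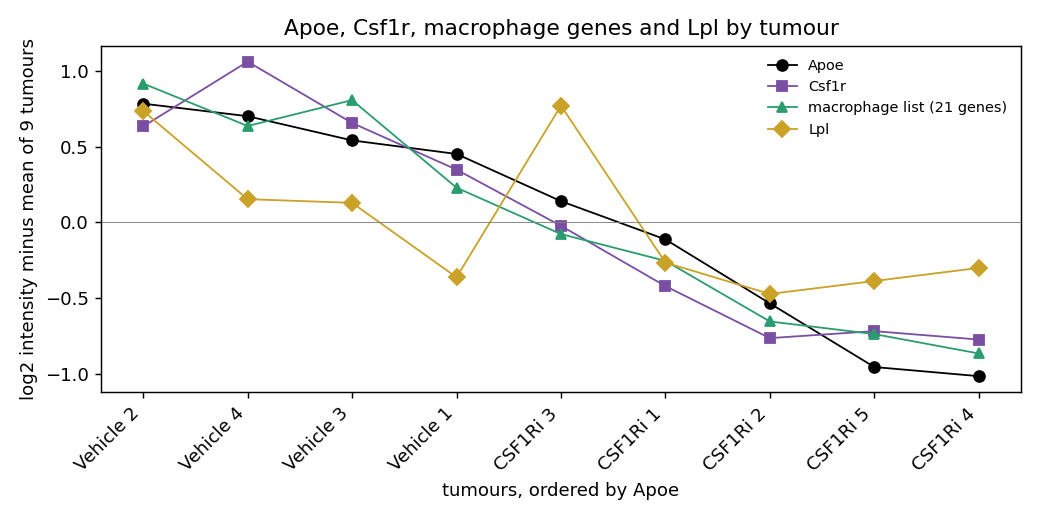
Log2 intensity minus the mean of the 9 tumours (vertical axis) for Apoe, Csf1r, the mean of 21 macrophage genes and Lpl, with the tumours ordered by Apoe (horizontal axis). Apoe, Csf1r and the macrophage list are above 0 in the 4 Vehicle tumours, and Apoe also in CSF1Ri 3. Lpl is highest in CSF1Ri 3 and low in Vehicle 1.

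The genes whose pattern over the 9 tumours was most like that of Apoe were taken by Pearson correlation among 9782 other genes. The first 5 were Was (r = 0.99), which encodes an actin regulator of blood cells, C1qa (0.98), Alox5ap (0.98), which serves leukotriene synthesis, C1qc (0.98) and C1qb (0.97), the last with C1qa and C1qc encoding the chains of complement C1q. The rank order of the 9 tumours was the same for C1qa and Apoe (rho = 1). Within groups, after the group means were removed, the same 5 correlations were 0.98, 0.93, 0.96, 0.91 and 0.91. These values describe genes picked as the closest on shared arrays. C1qa was at 9.93 ± 0.41 (SD, n = 4) in Vehicle and 8.40 ± 0.63 (SD, n = 5) in CSF1Ri tumours (limma adjusted p = 0.177), and Was at 7.24 ± 0.25 and 6.18 ± 0.61 (adjusted p = 0.299).

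Apoe lies in a cluster with other apolipoprotein genes, and the differences of the measured ones were smaller. Apoc1, its nearest neighbour on that side, was at 6.20 ± 0.64 in Vehicle and 6.24 ± 0.77 in CSF1Ri tumours (difference 0.04, limma adjusted p = 0.998), and its second probe had a difference of 0.20 (adjusted p = 0.969). Apoc2 was at 6.55 ± 0.18 and 6.23 ± 0.18 (difference -0.32, adjusted p = 0.599), and Apoc4 was detected on 2 of 12 arrays at most. On the other side, Tomm40, the mitochondrial import pore gene next to Apoe, had a difference of -0.28 (adjusted p = 0.791). Nectin2, Bcam and Cblc followed with 0.11, 0.04 and 0.43 (adjusted p = 0.968, 0.992 and 0.858). None of these differences from Apoe was itself tested.

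The lipid transporters could not be followed. The probe of Abca1 was detected on 0 of 12 arrays, with deposited intensities from -8.72 to 8.06. That of Abcg1 was detected on 3 arrays, 2 Vehicle and 1 CSF1Ri, with intensities from -4.57 to 23.98. The 3 arrays were the second hybridisation of Vehicle 1, the array of Vehicle 4 and that of CSF1Ri 4. Neither was tested, and both say only that the signal was not well above background on most arrays.

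Of the uptake genes, Lpl (probe ILMN_2692723) was measured well and Cd36 was not. Lpl was at 7.33, 8.43, 7.82 and 7.85 in Vehicle tumours 1 to 4 and at 7.43, 7.22, 8.47, 7.40 and 7.31 in CSF1Ri tumours 1 to 5. CSF1Ri 3 held the highest value of all 9 tumours and the other 4 CSF1Ri tumours lay together near the level of Vehicle 1. The group levels were 7.86 ± 0.45 (SD, n = 4) and 7.56 ± 0.51 (SD, n = 5), a difference of -0.29 (SE 0.28, 95% interval -0.91 to 0.32, limma adjusted p = 0.918). Without CSF1Ri 3 the difference was -0.52 (adjusted p = 0.489), and without Vehicle 2 it was -0.10. A second Lpl probe was detected on no array.

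CSF1Ri 3 was also the highest CSF1Ri tumour for the fibroblast list, at 9.63 against 8.90 to 8.92 in the other 4. It was the highest of all 9 tumours for the endothelial list as well, at 8.37 against 7.65 to 7.89 in the other CSF1Ri tumours and 7.80 to 8.08 in Vehicle. It was also the highest CSF1Ri tumour for the macrophage, neutrophil (7.83) and erythroid (8.67) lists. For the adipocyte list it was the lowest CSF1Ri tumour, at 7.49 against 7.68 to 7.76 in the others. The part of these cells in the Lpl value was not tested. Cd36 was detected on 0 of 12 arrays, with intensities from -4.86 to 1.07. Adipocytes are a textbook source of Lpl, Cd36 and Fabp4. Of the adipocyte list 6 of 20 genes were tested, with 0 called and a summed level of 3604 to 3892 in Vehicle and 3239 to 3883 in CSF1Ri tumours. Of its members, Adipoq, Plin1 and Cidec were detected on 0 of 6 Vehicle and 0 of 6 CSF1Ri arrays. Others were detected on some, Lep on 3 Vehicle and 4 CSF1Ri arrays, Lipe on at most 3 and 3, and Plin4 and Cidea each on 5 and 6. Acly, Pparg and Scd1 were detected on all 6 Vehicle and all 6 CSF1Ri arrays. The endothelial list, markers of the vessel lining, summed to 7356 to 8523 in Vehicle and 6527 to 9775 in CSF1Ri tumours, the last value being that of CSF1Ri 3, with 0 of 17 genes called and a median difference of -0.10.

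The intracellular carriers were near or below the background. Fabp4, the carrier of adipocytes and vessels, was detected on 0 of 12 arrays, with intensities from -6.67 to 2.14. Fabp5, the epidermal-type carrier that macrophages and many tumour cells also make, had 1 probe (ILMN_1235908) detected on 1 of 6 Vehicle and 4 of 6 CSF1Ri arrays, and a second probe detected on none. The first entered the test through Vehicle 4 and CSF1Ri 1, 3 and 5, so it was kept mainly by the CSF1Ri group. It was at 4.62, 4.46, 4.52 and 5.61 in Vehicle tumours 1 to 4 and at 5.05, 4.72, 5.06, 4.58 and 4.91 in CSF1Ri tumours 1 to 5. Vehicle 4 was the highest of all 9 tumours and the other 3 Vehicle tumours were not detected. The difference was 0.06 (SE 0.23, 95% interval -0.45 to 0.57, limma adjusted p = 0.989), and it was 0.33 without Vehicle 4.

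Plin2 (probe ILMN_1222246), which encodes the droplet coat perilipin 2, was higher in CSF1Ri tumours by a small amount that did not pass the test over all probes. Its level was 8.57, 8.42, 8.40 and 8.41 in Vehicle tumours 1 to 4 and 8.66, 8.90, 8.70, 8.73 and 8.79 in CSF1Ri tumours 1 to 5. With repeat arrays averaged, all 5 CSF1Ri tumours were above all 4 Vehicle tumours, and Vehicle 1 was nearest to them. Single arrays overlapped. The first array of CSF1Ri 1 was at 8.52, below both arrays of Vehicle 1 (8.57 and 8.57) and the second array of Vehicle 3 (8.57). The group levels were 8.45 ± 0.08 (SD, n = 4) and 8.75 ± 0.09 (SD, n = 5), a 1.23-fold higher level. The difference was 0.30 (SE 0.10, 95% interval 0.08 to 0.52 before any adjustment, limma adjusted p = 0.452).

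The 2 hybridisations of a tumour differed in Plin2 by 0.34 for Vehicle 3, 0.28 for CSF1Ri 1 and 0.00 for Vehicle 1, so a repeat of the same tumour could move the level by about as much as the groups differed. The deposited intensities overlapped between the groups, from 175 to 287 against 285 to 386 on the dimmer arrays and from 364 to 552 against 489 to 535 on the brighter ones. The difference was positive in all 22 other settings, from 0.25 to 0.34, with adjusted p from 0.216 to 1.00.

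**Figure D3:**
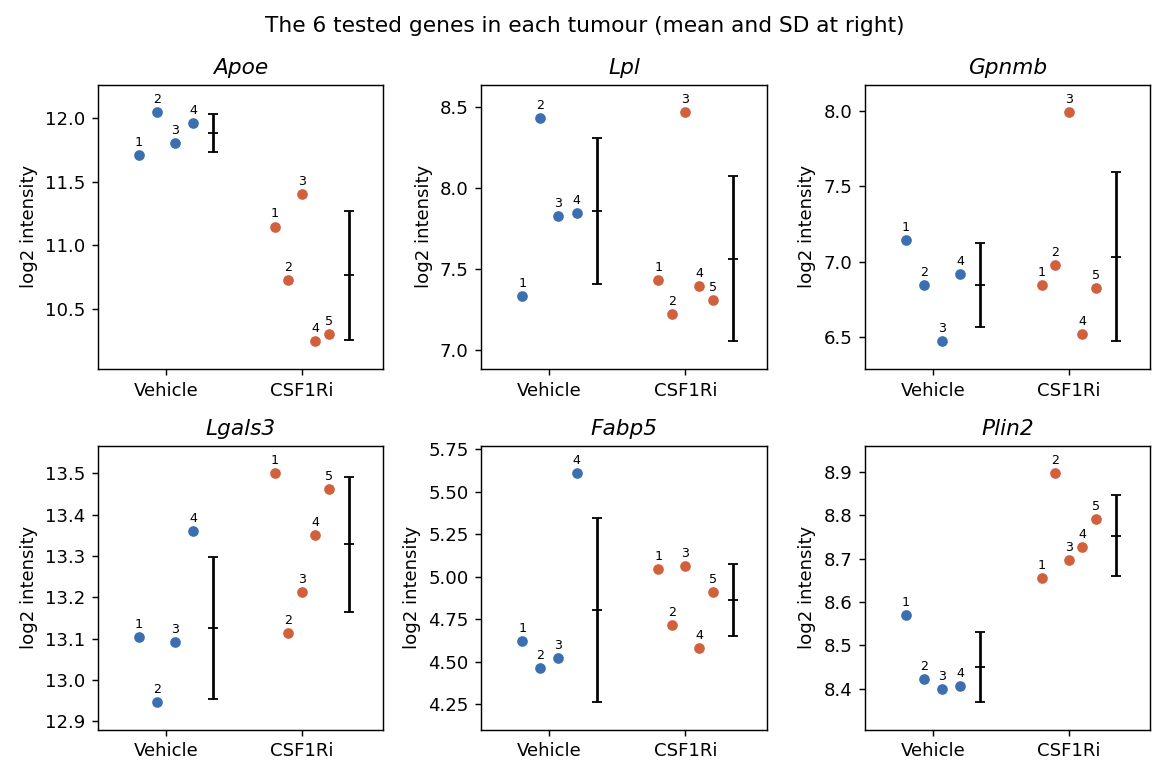
Normalised log2 intensity (vertical axes, a different range for each gene) of the 6 tested genes in each tumour, labelled by replicate number, with the mean and SD of the group beside the points (n = 4 Vehicle, n = 5 CSF1Ri). Apoe separates with lower and Plin2 with higher CSF1Ri values, and CSF1Ri 3 is the highest CSF1Ri tumour for Apoe, Lpl, Gpnmb and Fabp5.

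The markers of loaded phagocytes, Gpnmb and Lgals3, overlapped between the groups. Gpnmb (probe ILMN_2648669) was at 7.14, 6.85, 6.47 and 6.91 in Vehicle tumours 1 to 4 and at 6.85, 6.98, 7.99, 6.52 and 6.83 in CSF1Ri tumours 1 to 5. CSF1Ri 3 stood above every other tumour and the remaining values were mixed. The group levels were 6.84 ± 0.28 (SD, n = 4) and 7.03 ± 0.56 (SD, n = 5), with a difference of 0.19 (SE 0.27, 95% interval -0.40 to 0.78, limma adjusted p = 0.961), which turned to -0.05 without CSF1Ri 3. The other 3 Gpnmb probes were detected on no array, so the gene rests on 1 of its 4 probes.

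Lgals3 (probe ILMN_1223317) was at 13.10, 12.95, 13.09 and 13.36 in Vehicle tumours 1 to 4 and at 13.50, 13.11, 13.21, 13.35 and 13.46 in CSF1Ri tumours 1 to 5. With repeat arrays averaged, all 5 CSF1Ri tumours were above 3 of the Vehicle tumours, and Vehicle 4 lay inside their range. The 2 hybridisations differed by 0.09 for CSF1Ri 1, 0.10 for Vehicle 1 and 0.19 for Vehicle 3. The second arrays of Vehicle 1 (13.16) and Vehicle 3 (13.19) were above CSF1Ri 2. The group levels were 13.13 ± 0.17 (SD, n = 4) and 13.33 ± 0.16 (SD, n = 5), a difference of 0.20 (SE 0.13, 95% interval -0.08 to 0.48, limma adjusted p = 0.822). The tumour and ductal epithelium list, which covers cells that also make galectin-3, had 0 of 12 genes called and a median difference of 0.11.

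**Figure D4:**
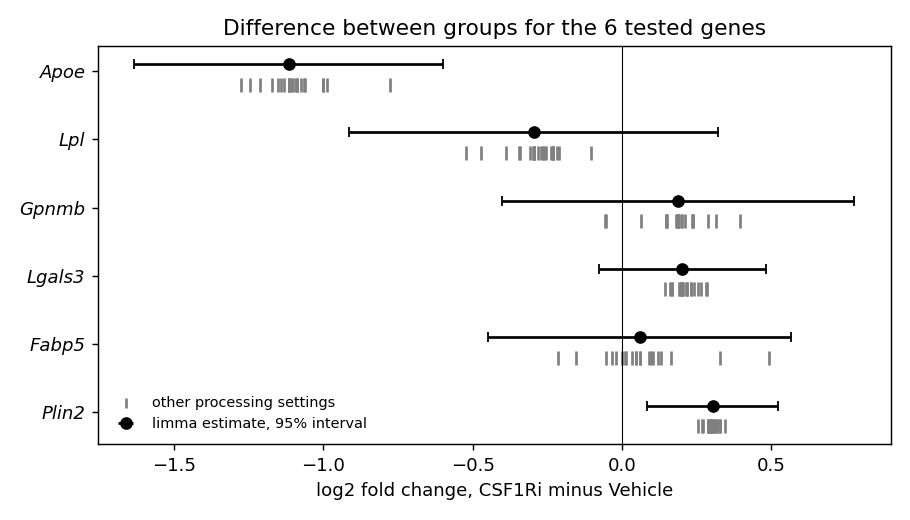
Difference between the groups (log2 fold change, CSF1Ri minus Vehicle, horizontal axis) for the 6 tested genes, with the limma estimate and its unadjusted 95% interval in black and the estimates under other settings as grey ticks below. The intervals of Apoe and Plin2 leave out 0, and those of Lpl, Gpnmb, Lgals3 and Fabp5 hold it.

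The 6 genes did not move as a block across the tumours. Plin2 and Apoe ran opposite (r = -0.86 over the 9 tumours), a value that was -0.43 once the group means were removed, and Apoe and Lpl ran together (0.62 and 0.69). Apoe and Gpnmb had r = 0.17 over all tumours and 0.69 within groups. For the other members the gene with the closest pattern was Rgl1 for Lpl (r = 0.99), Rasl11b for Gpnmb (0.92), Wnt10a for Lgals3 (0.96), Lmf2 for Fabp5 (0.97) and Dym for Plin2 (0.94). All of these are descriptions over the same 9 tumours and arrays, and the closest genes were picked among 9782.

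The wider lipid pathways gave no called gene in the test over all probes. In the list of cholesterol efflux and liver X receptor targets, 0 of 17 tested genes passed. With the 12 arrays and the tumour as a random block 1 of 17 was called lower, and likewise 1 with the brightness term added. At an unadjusted p under 0.05, 2 were lower in the main fit (median difference -0.06). Over all 9788 genes, 364 were lower and 354 higher at that unadjusted threshold, which is the background for this and the next lists. The lowest p was that of Cyp27a1, which makes the oxysterol 27-hydroxycholesterol, at 6.64 ± 0.25 in Vehicle and 6.02 ± 0.11 in CSF1Ri tumours (difference -0.61, limma adjusted p = 0.192). Every CSF1Ri tumour was below every Vehicle tumour for this gene, beside 1.32% of all probes. Apoc2, the activator of lipoprotein lipase described above, and Rxrb, a partner receptor (difference 0.17, adjusted p = 0.827), came next.

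Among genes of lipoprotein and fatty acid uptake, 0 of 16 passed, with 1 lower and 1 higher at an unadjusted p under 0.05 (median 0.02). Vldlr, the very low density lipoprotein receptor gene, was at 9.32 ± 0.15 in Vehicle and 9.84 ± 0.30 in CSF1Ri tumours without overlap (difference 0.52, limma adjusted p = 0.411). Such a separation on the higher side held for 1.5% of all probes. Msr1, the scavenger receptor gene of macrophages, was at 6.14 ± 0.49 and 5.29 ± 0.48 (difference -0.85, adjusted p = 0.458), and it also belongs to the macrophage list. Slc27a3, of the fatty acid transport protein family, had a difference of 0.31 (adjusted p = 0.692).

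For lipid droplets and lipolysis, 0 of 19 passed and the median was 0.13. Plin4, a droplet coat relative of Plin2, had a difference of 0.39 (limma adjusted p = 0.675), the triglyceride lipase gene Pnpla2 of 0.22 (adjusted p = 0.705) and the droplet gene Cidea of 0.52 (adjusted p = 0.802). Pnpla2 was higher in CSF1Ri tumours without overlap, beside 1.5% of all probes. For PPAR and other lipid-responsive regulators, 0 of 11 passed (median 0.01), with Hmox1 at -0.43, Angptl4 at 0.17 and Pparg, the PPAR gamma gene, at 0.22 (adjusted p = 0.761, 0.875 and 0.887). For cholesterol synthesis, 0 of 20 passed (median -0.03), with Insig2, a brake on sterol regulators, at 0.33, Pmvk at -0.27 and Idi1 at 0.27 (adjusted p = 0.501, 0.699 and 0.751).

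The genes known from lipid-associated macrophages had 0 of 21 called, 5 lower and 0 higher at an unadjusted p under 0.05 and a median of -0.14, beside 364 lower and 354 higher of all 9788 genes. Of the 21 differences, 13 were negative and 8 positive. Anxa5 was higher in CSF1Ri tumours without overlap (difference 0.16, limma adjusted p = 0.768), beside 1.5% of all probes. The signalling pair of lipid-associated macrophages had the lowest p of the list. Tyrobp, the adaptor, was at 8.82 ± 0.42 in Vehicle and 7.51 ± 0.68 in CSF1Ri tumours (difference -1.31, limma adjusted p = 0.267), and Trem2, the lipid-sensing receptor, at 7.89 ± 0.63 and 6.84 ± 0.33 (difference -1.06, adjusted p = 0.286). Ctss, the gene of cathepsin S, followed with -0.74 (adjusted p = 0.368). Ctss was lower in CSF1Ri tumours without overlap, beside 1.32% of all probes. Of the 5 lower genes, Tyrobp and Mertk (difference -0.60, adjusted p = 0.458) also belong to the macrophage list.

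The cell type lists are given by their 3 genes of lowest p, with the limma adjusted p of each. The macrophage list was led by Cx3cr1, the fractalkine receptor gene (7.27 in Vehicle and 4.72 in CSF1Ri tumours, adjusted p = 2.79e-05). Mrc1, the mannose receptor gene (9.22 and 7.83, 0.00778), and Fcrls (6.85 and 4.38, 0.00778) came next. Among CSF1Ri arrays, Cx3cr1 was detected on 1 and Fcrls on 0, so their levels there are near the background. The neutrophil list was led by Trem1, Il1r2 (difference -0.89, adjusted p = 0.223) and the myeloperoxidase gene Mpo (-2.78, 0.329). Il1r2 was detected on 6 Vehicle and 2 CSF1Ri arrays. The acinar list, genes of the digestive enzyme cells, was led by Ctrl (-2.60, 0.699), Cela3b (-2.93, 0.708) and Rbpjl (-1.18, 0.7096).

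In the epithelial list Cldn4, a tight junction gene, had a difference of 0.82 (limma adjusted p = 0.621), Sox9 of 0.18 (0.871) and the keratin gene Krt19 of 0.16 (0.953). In the fibroblast list the contractile genes Tagln and Acta2 had -0.62 (0.469) and -0.29 (0.875), and Fap had -0.21 (0.877). In the endothelial list Kdr had 0.19 (0.875), Eng -0.20 (0.903) and Emcn -0.22 (0.904). In the adipocyte list the first and the third were Plin4 and Cidea, described above, and Acly, of fatty acid synthesis, came between them with -0.17 (0.754). In the erythroid list Car1 had -0.54 (0.923), Klf1 -0.45 (0.934) and Hbb-b2 -0.71 (0.953).

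**Figure D5:**
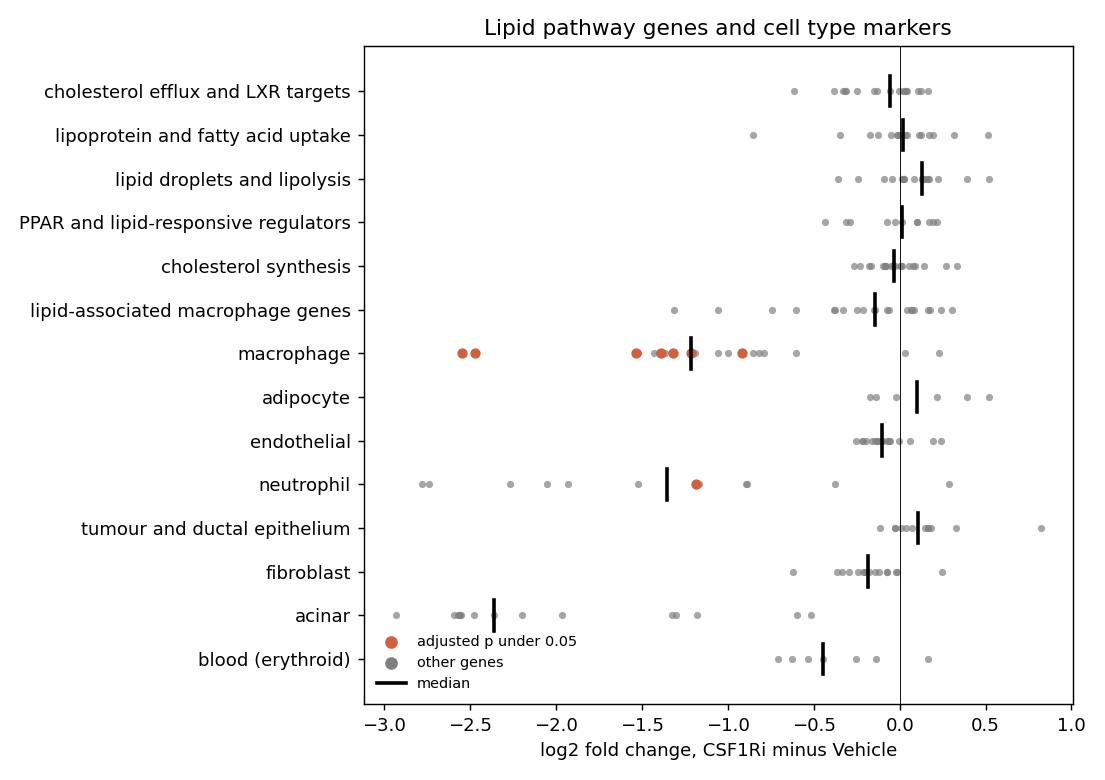
Log2 fold change (CSF1Ri minus Vehicle, horizontal axis) of each tested gene in 6 lipid lists and 8 cell type lists (rows), with the 10 genes above left out. Black bars are medians and orange points passed a limma adjusted p under 0.05, which happened for 7 macrophage genes and 1 neutrophil gene.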

How the data were processed

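The authors deposited, per the file headers, an intensity and a detection p-value for 45281 probes on each of 12 arrays. The deposited intensity was already background-subtracted, since it goes below 0, and was not scaled between arrays. A further deposited table holds the same intensity scaled by the authors to a mean of 212 per array. No header or label used here names the software. The number of arrays limits the precision.

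Normalisation was by neqc in limma 3.58.1 (R 4.3.3), with the background estimated through the detection p-values, an offset of 16, quantile normalisation and log2. Repeat arrays were averaged. The 16606 probes detected (p-value under 0.05) on all arrays of at least 4 tumours were fitted with lmFit and eBayes, with Benjamini-Hochberg adjustment over all of them and a threshold of 0.05. The fit was on probes, because every probe of a gene was described, and was tested on simulated data. The offset understates changes of dim probes. Probe symbols came from the platform annotation (34885 probes with 1 symbol, 18 with several, 10378 with none). For lists and named genes the brightest tested probe stood for a gene. Named were all members, Csf1r, the 3 genes of lowest p in each list, the 5 genes most correlated with Apoe and the 1 most correlated with each other tested member. Genes next to Apoe and genes called in a list were added to these. Mertk, Cd14, Marco and Anxa5 were added after their values were seen. Adipoq, Plin1, Cidec, Lep, Lipe and Scd1 were named for their detection. The endothelial, adipocyte, epithelial, fibroblast and erythroid lists had 0 called genes, and the erythroid median was -0.45 over 7 genes, that of fibroblasts -0.19 over 16 and that of adipocytes 0.10 over 6.

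The members and lists were chosen with earlier results of these data known, so no test was made over a list. Alternatives covered background, scaling, filter, unit, repeat arrays, blocks, weights and single tumours. Those by array brightness were chosen after seeing the data.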

Additional observations from a re-analysis of the deposited data

Results flagged for a closer look

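In a group of 4 or 5 tumours, a tumour far from the others in the range of its group stood out in 4 of 28 groups examined. Chance gives about 1 in 20 for a single group. The 28 groups reuse the same 9 tumours, so the 4 cannot be set against that rate. Fabp5 was at 5.61 in Vehicle 4, against 4.62 in the next Vehicle tumour. Plin2 was at 8.57 in Vehicle 1, against 8.42 in the next, on the side of the CSF1Ri tumours. The 2 hybridisations of Vehicle 3 were at 8.23 and 8.57 for Plin2, 0.34 apart, and entered as their average. Lpl was at 8.47 in CSF1Ri 3, against 7.43 in the next CSF1Ri tumour. The fibroblast list was at 9.63 in CSF1Ri 3 as well, against 8.92 in the next. CSF1Ri 3 was the highest CSF1Ri tumour for 4 of the 6 tested members.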

How the results depend on the processing

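Of 131 values of the 6 tested members under the alternatives, 120 kept the direction and the side of the threshold, 3 came under the threshold (all Apoe) and 8 turned direction (Gpnmb and Fabp5). The cause was not tested. Gpnmb turned to -0.056 within the brighter arrays and to -0.052 without CSF1Ri 3, and ran from -0.052 to 0.32 on leaving out each tumour. Fabp5 turned to -0.21 in the authors' processed values with a floor of 16, -0.020 with median scaling and -0.15 within the brighter arrays, and ran from -0.053 to 0.33 on leaving out each tumour (-0.0003 without Vehicle 1, -0.053 without Vehicle 2 and -0.034 without Vehicle 3). The count of member probes called lower went from 0 to 1 (Apoe) with the 12 arrays and the tumour as a random block, with the brightness term added, and on leaving out CSF1Ri 3 (0 to 1 over the tumours left out).

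Over all probes, 24 were called lower and 0 higher. The lower count was 7 without the filter, 10 with probes detected on all 12 arrays, 45 with the tumour as a random block, 46 with the brightness term added, 43 with array quality weights, 1 in the dimmer arrays alone, 8 in the brighter arrays alone, and 6 to 33 on leaving out each tumour. The higher count was 1 with normexp that did not use the detection p-values and had an offset of 50, 1 with median scaling, 8 with the random block, 6 with the brightness term, 7 with weights, and 0 to 1 on leaving out each tumour. At an unadjusted p under 0.05, 564 probes were lower and 694 higher in limma. With the replicate block, which leaves out CSF1Ri 5, 1 probe was lower, 0 were higher and the Apoe difference was -1.001. The adjusted p of Csf1r ran from 0.00739 to 0.607 over its alternatives. The correlation of same-numbered tumours was -0.06 to 0.19, and 1 of 8 tumours matched its own number best, so the numbers were not taken as pairs. The slide as a block was not run, because the columns name no slide.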
